A study of Mus musculus with 90 samples.

Results

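Uhrf1 binding was mapped across the mouse genome in DKO0 and TKOL embryonic stem cells (ESCs), and the 6 deposited lists of Uhrf1 peaks from these lines are described here. They came from 4 of the 90 samples of the series, 2 replicates per line, and held 1 list for each replicate and 1 list per line made from both replicates pooled on read level. TKOL cells are a clonal J1 line that lacks catalytically active Dnmt3a and Dnmt3b and carries a Dnmt1 shRNA with a GFP reporter. DKO0 cells are TKOL cells from which a transient Cre transfection removed the shRNA, so that Dnmt1 was restored while Dnmt3a and Dnmt3b stayed inactive. Both lines carry a FLAG tag on both copies of the endogenous Uhrf1 gene, both were kept on feeder fibroblasts in serum with LIF, and Uhrf1 was recovered with a FLAG antibody by ChIPmentation, in which the transposase Tn5 adds adapters to chromatin on the beads. The names of the DKO0 replicate lists carry the tag p3, which the labels do not explain. The DKO0 replicate lists of H3K9me3 and Trim28, used in pooled form for comparison below, carry a different tag in their names. The study does not say that the cells used for H3K9me3 and Trim28 held the FLAG tag. Nothing says that the replicates were separate cultures, so p-values measure only the spread between these libraries. Peak lists hold no expression values, so the cell type was not checked against its markers.

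Uhrf1 is the multidomain E3 ligase that brings the maintenance methyltransferase Dnmt1 to newly replicated DNA. Its SRA domain binds hemimethylated CpGs, its tandem Tudor domain binds methylated lysine 9 of histone H3, and it ubiquitylates histone H3, a mark that Dnmt1 recognises. Retrotransposons of the IAP family are kept silent largely by H3K9me3 in ESCs and by DNA methylation in somatic cells, and Trim28 is the scaffold that KRAB zinc finger proteins bring to these elements.

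The sequences below, read from mm9, are examples of the kinds of loci in the lists. Capitals mark the word or the CpGs named before each set, which not every sequence holds alike. The first 4 loci had a peak in all 4 replicate lists and carry letters of RE1, the element bound by the neuronal gene repressor REST. Capitals mark the word CTGTCCNNGG in the first and the longer word CTGTCCNNGGTGCTG, or its reverse complement, in the others.

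Shared locus 1, chr12:44073907-44074056, plus strand: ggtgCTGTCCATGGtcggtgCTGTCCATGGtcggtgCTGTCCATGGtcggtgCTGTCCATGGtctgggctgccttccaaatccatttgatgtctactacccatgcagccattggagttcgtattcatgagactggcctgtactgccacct
Shared locus in Erich1, chr8:14072696-14072775, plus strand: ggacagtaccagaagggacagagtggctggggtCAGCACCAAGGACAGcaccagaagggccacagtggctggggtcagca
Shared locus near Kcnk9, chr15:72399058-72399137, plus strand: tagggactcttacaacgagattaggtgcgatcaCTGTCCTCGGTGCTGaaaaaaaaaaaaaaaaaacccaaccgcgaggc
Shared locus at Gm16532, chr7:6362953-6363032, plus strand: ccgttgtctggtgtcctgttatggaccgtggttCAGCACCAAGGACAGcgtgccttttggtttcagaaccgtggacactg

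The next sequences come from loci with a peak in both replicates of one line and in no list of the other. In the TKOL locus in Cntn4, capitals mark runs of the word GAGAGAGAGA or its reverse complement. The first TKOL locus by fold enrichment holds another simple repeat, and the word is not in the bases printed. In the DKO0 loci, capitals mark CpGs, of which locus 1 holds 1 and the Fut10 promoter 13 in the bases printed.

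TKOL-specific locus 1, chr3:47956681-47956830, plus strand: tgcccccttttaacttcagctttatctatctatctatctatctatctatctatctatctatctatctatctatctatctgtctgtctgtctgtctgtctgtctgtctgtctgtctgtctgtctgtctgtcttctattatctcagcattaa
TKOL-specific locus in Cntn4, chr6:105778407-105778556, plus strand: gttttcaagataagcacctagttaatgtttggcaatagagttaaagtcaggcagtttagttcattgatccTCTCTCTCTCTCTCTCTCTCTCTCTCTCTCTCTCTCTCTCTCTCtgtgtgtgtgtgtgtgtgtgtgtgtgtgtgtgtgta
DKO0-specific locus 1, chr6:44507920-44508069, plus strand: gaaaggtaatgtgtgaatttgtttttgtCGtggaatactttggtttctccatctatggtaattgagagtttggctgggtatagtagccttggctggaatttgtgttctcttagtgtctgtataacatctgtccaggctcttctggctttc
DKO0-specific locus at the Fut10 promoter, chr8:32297724-32297873, plus strand: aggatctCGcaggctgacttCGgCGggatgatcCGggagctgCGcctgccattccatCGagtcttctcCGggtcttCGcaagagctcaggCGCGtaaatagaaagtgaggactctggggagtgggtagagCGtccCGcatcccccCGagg

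DKO0 replicate 1 stood apart from the other replicate lists, with the most promoter peaks and the fewest GA repeats, and TKOL replicate 1 had the fewest promoter peaks, so the values of each list are given throughout.

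Fewer and weaker peaks were listed in DKO0 than in TKOL, and neither difference could pass a test in this design. The DKO0 replicate lists held 11440 and 11488 peaks, and the TKOL lists 17444 and 14815. The groups did not overlap, with 11464 ± 33.9 (SD, n = 2) peaks in DKO0 and 16130 ± 1859 (SD, n = 2) in TKOL, but with 2 lists per line the exact permutation test cannot go below p = 0.333, the value found here. With peaks that hold a GA repeat left out, the lists held 9900 and 7799 peaks in DKO0 and 11855 and 9280 in TKOL, and the lines overlapped (exact permutation p = 0.667). Covered length was 2.37 and 2.27 Mb in DKO0 and 3.66 and 2.78 Mb in TKOL (exact permutation p = 0.333). With equal peak numbers it was 2.37 and 2.27 Mb in DKO0 and 2.65 and 2.25 Mb in TKOL, so that the lines overlapped (exact permutation p = 1.00). The median fold enrichment, which is the authors' ratio of signal to the background that MACS2 estimates, was 3.19 and 3.26 in DKO0 and 3.40 and 3.53 in TKOL (exact permutation p = 0.333). Peaks were narrow in all lists, with a median width of 164 and 156 bp in DKO0 and 163 and 149 bp in TKOL, and here the lines overlapped (exact permutation p = 0.667). The pooled lists kept the order, with 30516 peaks in DKO0 and 40754 in TKOL. The study states a single target depth for all its ChIP libraries. The depth reached is unknown, since a peak list has no read totals, and its part in the number of peaks was not tested.

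**Figure D1:**
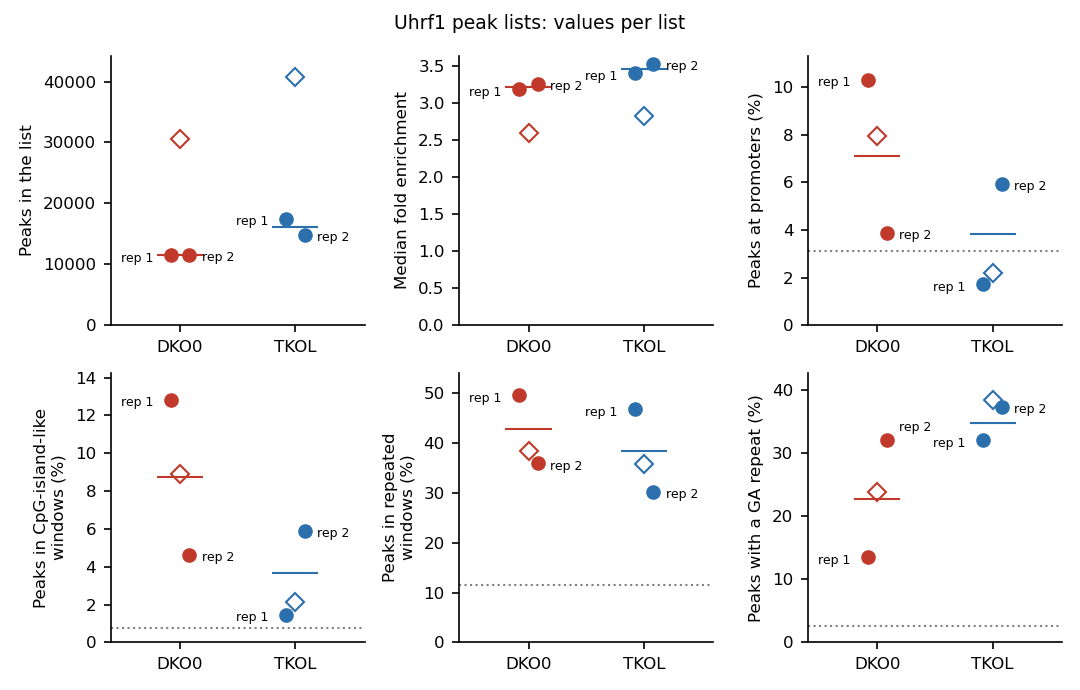
Values of the Uhrf1 peak lists of DKO0 (red) and TKOL (blue): number of peaks, median fold enrichment, and the share of peaks (%) at promoters, in CpG-island-like windows, in repeated windows and with a GA repeat. Filled circles are replicates, horizontal lines their mean, diamonds the pooled lists and dotted lines the genome. Peak number and fold enrichment separated the lines, while for the 4 shares the replicates of the lines overlapped.

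The lists did not group by line. The covered length that a pair of lists shared, as a share of the length that either covered, was 19.3% between the DKO0 replicates and 16.7% between the TKOL replicates. Between the lines it was 16.0%, 16.6%, 18.5% and 21.1%, so the pair most alike was DKO0 replicate 2 with TKOL replicate 2. The mean over pairs was 18% within a line and 18% between the lines. With the 11440 peaks of lowest p-value taken from each list, it was 18.9% within and 19.4% between.

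**Figure D2:**
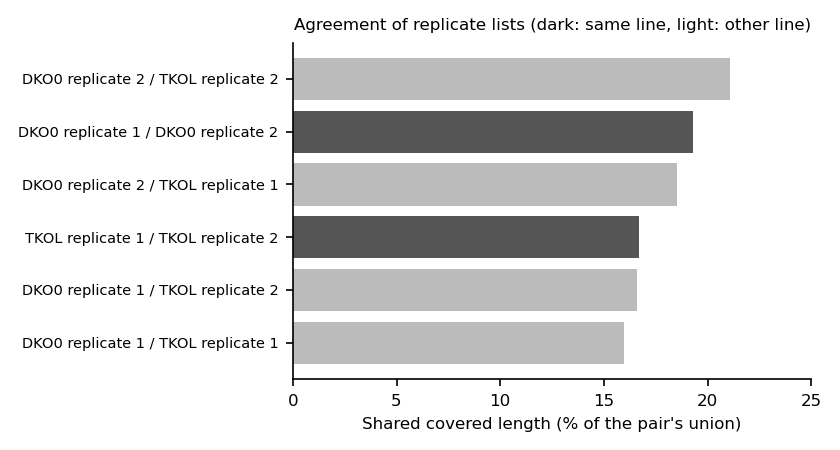
Shared covered length of each pair of replicate lists, as a percentage of the union of the pair, with pairs of the same line in dark grey and pairs across lines in light grey. The same-line pairs, at 19.3% and 16.7%, lay among the 4 pairs across lines, which ran from 16.0% to 21.1%.

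The strongest peaks were common to both lines. Of the 1000 pooled DKO0 peaks of lowest p-value, 96.6% overlapped a pooled TKOL peak, and of the 1000 such TKOL peaks 93.0% overlapped a pooled DKO0 peak. For ranks 20001 to 30000 these shares were 29.7% and 27.2%. Peaks in both replicates followed the same course, from 91.1% of the first 1000 pooled DKO0 peaks to 0.47% of ranks 20001 to 30000, and from 90.9% to 1.51% in TKOL. Merging all 6 lists gave 63145 loci, of which 26301 were present in a pooled list alone, 25870 in 1 replicate list and 1934 in all 4. Of the 3685 loci in both DKO0 replicates, 91.2% had a peak in some TKOL list, and of the 5100 loci in both TKOL replicates, 81.6% had a peak in some DKO0 list.

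Of the 1934 loci in all 4 lists, 1167 lay in repeated windows. A DKO0 H3K9me3 peak overlapped 79% of these 1167 and 46.3% of the other 767. Repeated windows, here 500-bp windows at the midpoint of a peak in which most sampled 24-bp words occur at least 10 times in mm9, made up 60.3% of these loci, against 11.6% of windows placed on a regular grid. An H3K9me3 peak of DKO0 overlapped 66.0% of them and of TKOL 63.2%, whereas a Trim28 peak overlapped 41.3% and 49.1%. By position, 75.6% were intergenic, 22.1% lay in bodies of coding genes and 2.22% at promoters, meaning within 1000 bp of an annotated start of a coding gene. In WT V6.5 cells, which carry the same tag, 70.1% had a Uhrf1 peak in at least 1 of 2 replicates. The X chromosome held 309 of the shared loci (16.0%) and the Y chromosome 92 (4.76%), where mm9 has 6.33% and 0.106% of its bases.

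At the shared loci the fold enrichment was lower in DKO0 by the median. It was 3.34 and 3.40 in the DKO0 replicates and 3.62 and 3.67 in the TKOL replicates. Both DKO0 values lay under both TKOL values at 586 loci (30.3%) and above both at 174 loci (9.0%), and at the rest the lines overlapped. These folds come from separate runs of the peak caller, so they carry any difference in depth.

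Of the 10 shared loci with the highest fold, 7 lay outside repeated windows. The first by fold, a tandem array of CTGTCCATGG on chromosome 12 far from any coding gene, had folds of 12.9 and 14.6 in DKO0 and 17.5 and 19.4 in TKOL. The second, 12402 bp from the start of Igsf21, a synaptic immunoglobulin protein, had 18.5 and 14.6 in DKO0 and 12.3 and 26.8 in TKOL. In Erich1 the folds were 9.28 and 9.73 in DKO0 and 15.3 and 16.4 in TKOL. Near Kcnk9, which encodes a potassium channel, they were 11 and 9.27 in DKO0 and 11 and 12.3 in TKOL. Of these 4 loci, those on chromosome 12 and in Erich1 had both TKOL values above both DKO0 values. At the promoter of Gm16532, a predicted gene, the folds were 8.72 and 10.9 in DKO0 and 10.8 and 15.1 in TKOL. None of these 5 loci overlapped an H3K9me3 or Trim28 peak of either line, and each had a peak in both WT lists. Among the 10 highest shared loci, those nearest to Gm7247, Sec16b and Cyp2c54 were repeated and overlapped both marks in both lines, while those in Camta1 and Celf4 were neither.

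The letters of RE1 recurred in the Uhrf1 lists. REST binds RE1 in non-neuronal cells and keeps neuronal genes silent there. The words were searched on both strands after the sequences of the highest loci had been read, so the counts describe and do not test. Their letters were read from the locus near Kcnk9, with positions 7 and 8 left free. The 15-bp word CTGTCCNNGGTGCTG occurs at 619 places in mm9. A Uhrf1 peak covered 100 and 85 of them in the DKO0 replicates (16.2% and 13.7%) and 50 and 99 in the TKOL replicates (8.08% and 16.0%), where peaks covered 0.109% to 0.151% of grid positions. The lines overlapped in this share, and TKOL replicate 1 was the lowest. Of the 619 places, 43 were covered in all 4 lists, 5 in both DKO0 replicates and no TKOL list, and 1 in both TKOL replicates and no DKO0 list. H3K9me3 peaks covered 6 places in DKO0 (0.969%) and 2 in TKOL (0.323%), beside 3.39% and 3.03% of grid positions. The WT Uhrf1 lists covered 23 and 37 places (3.72% and 5.98%), beside 0.340% and 0.618% of grid positions.

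The 43 places covered in all 4 lists lay in 31 loci, 5 at promoters, 14 in gene bodies and 12 intergenic. Those below were picked after their values were seen and are not all neuronal. At the promoter of Npas4, a neuronal activity-dependent transcription factor, the folds were 7.76 and 9.06 in DKO0 and 4.25 and 9.13 in TKOL. At L1cam, a neural adhesion protein, they were 4.63 and 4.67 in DKO0 and 5.08 and 5.38 in TKOL. The lines overlapped at Npas4, and at L1cam both TKOL values were the higher. In the body of Rbfox3, a neuronal splicing factor, the folds were 6.45 and 5.67 in DKO0 and 4.11 and 7.49 in TKOL. In the body of Syt7, a calcium sensor of vesicle release, they were 4.90 and 4.44 in DKO0 and 5.09 and 6.85 in TKOL. The place 1876 bp from the start of Lin28a, an RNA-binding protein of pluripotent cells, had 5.88 and 6.98 in DKO0 and 4.49 and 7.99 in TKOL. In a gene body 3837 bp from the start of Tas1r3, a taste receptor, the folds were 6.93 and 8.14 in DKO0 and 3.26 and 8.66 in TKOL. The place 25877 bp from C1qa, which encodes a complement protein, had 6.55 and 6.12 in DKO0 and 4.17 and 8.19 in TKOL. At Psmb2, a proteasome subunit 22091 bp away, they were 3.96 and 3.65 in DKO0 and 3.13 and 5.06 in TKOL. At Tas1r3, C1qa and Psmb2 the lines overlapped. Over the 31 shared loci with the long word at their midpoint, the median fold was 5.88 and 5.67 in DKO0 and 4.51 and 7.41 in TKOL, against 3.34 to 3.67 over all shared loci. The locus near Kcnk9, from which the word was read for its high fold, is among the 31, so this comparison describes and does not test. All 31 lay outside repeated windows, and 3.23% of them overlapped an H3K9me3 peak. Of all shared loci outside repeated windows, 46.3% did so in DKO0 and 39.8% in TKOL.

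Among the repeat classes examined, IAP elements most often had a Uhrf1 peak. Places were found by matching the primer pairs of the study to mm9, and a peak within 1000 bp was counted. Of 809 places with the IAPEz gag amplicon, 60.2% and 43.5% had a peak in the DKO0 replicates and 62.8% and 52.9% in the TKOL replicates. Grid windows of the same size held a peak in 0.915% to 1.37% of cases. The mean was 51.9% ± 11.8 in DKO0 and 57.8% ± 6.99 in TKOL (SD, n = 2), and the lines overlapped (exact permutation p = 0.667). In the pooled lists the share was 86.9% in DKO0 and 90.6% in TKOL, and in the WT lists it was 94.2% and 99.4%. These lists are longer, and the 2 WT lists together held 79290 peaks. Grid windows held a peak in 2.52% and 3.26% of cases in the pooled lists and in 2.44% and 3.95% in the WT lists. IAP LTR places followed at 44.4% and 33.7% in DKO0 and 48.7% and 34.8% in TKOL. The young LINE-1 class L1MdT had a peak at 2.08% and 1.87% of 1445 places in DKO0 and 3.32% and 2.42% in TKOL (exact permutation p = 0.333), and MuERVL, the retrovirus active in two-cell-like cells, at 0.296% to 1.33% of 676 places. Pooled H3K9me3 peaks stood at 100% of the IAPEz and L1MdT places in both lines. Of the gag places with a peak in both replicates of a line, 261 in DKO0 and 316 in TKOL, 148 were common, and 4 DKO0 and 6 TKOL places had no peak in any list of the other line. IAP copies share most of their sequence and the IAP amplicons lie in many of the same elements, so the places are not independent. In the study, short bisulfite reads often aligned to several places in the regions that gained methylation, which overlap IAP elements. Its ChIP methods state no filter for such reads, and their part in peaks at single copies and in repeated windows was not tested.

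**Figure D3:**
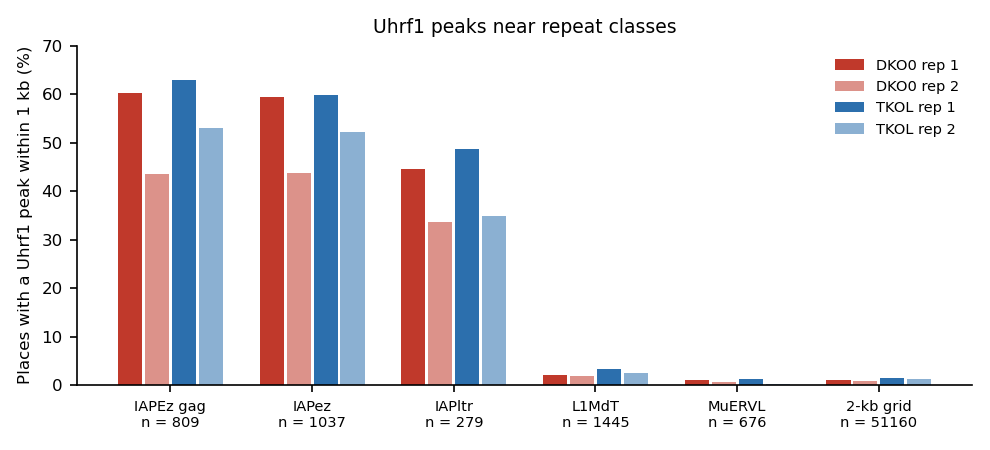
Share of places (%) of each repeat class with a Uhrf1 peak within 1000 bp, for the replicates of DKO0 (red) and TKOL (blue), beside grid windows of the same size. The 3 IAP classes ran from 33.7% to 62.8% in every list, and L1MdT and MuERVL stayed at 3.32% or less.

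In the full lists, overlap with heterochromatin marks did not separate the lines. An H3K9me3 peak of the same line overlapped 46.7% and 33.1% of DKO0 peaks and 43.5% and 26.7% of TKOL peaks (exact permutation p = 0.667), against 4.05% and 3.77% of 200-bp grid windows. A Trim28 peak overlapped 32.1% and 20.6% of DKO0 peaks and 34.5% and 20.7% of TKOL peaks (exact permutation p = 0.667), against 1.68% and 1.72% of grid windows. Repeated windows made up 49.5% and 35.8% in DKO0 and 46.7% and 30.1% in TKOL. For all 3 measures replicate 1 was the higher in each line. In the stronger peaks, with a -log10 q of at least 3, H3K9me3 overlapped 61.5% and 47.6% in DKO0 and 46.8% and 35.3% in TKOL. The lines did not overlap there (exact permutation p = 0.333). This cutoff kept 2837 and 2823 peaks in DKO0 and 4109 and 3484 in TKOL. Among the first 1000 peaks of each list by p-value, H3K9me3 overlapped 71.5% and 59.5% in DKO0 and 62.3% and 50.2% in TKOL. For ranks 1001 to 3000 it overlapped 55.35% and 40.8% in DKO0 and 43.8% and 30.25% in TKOL. At both ranges of ranks the lines overlapped. With repeated windows left out, the H3K9me3 share was 15.2% and 12.4% in DKO0 and 12.3% and 8.05% in TKOL. The Trim28 share was then 3.43% and 3.41% in DKO0 and 4.61% and 3.91% in TKOL. For these shares the lines did not overlap, and each had the smallest p of the design.

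At promoters the pooled lists differed, while the replicates of the lines overlapped. Of the pooled DKO0 peaks, 7.97% had their midpoint at a promoter, and of the pooled TKOL peaks 2.18%, while promoters make up 3.10% of mm9. In the replicates the share was 10.3% and 3.88% in DKO0 and 1.71% and 5.93% in TKOL (exact permutation p = 0.667). TKOL replicate 2 thus lay above DKO0 replicate 2, and without DKO0 replicate 1 the difference of the means fell from 3.27 to 0.0621 percentage points. Windows like a CpG island, with at least 50% G and C and a ratio of observed to expected CpGs of at least 0.6, showed the same order, at 12.8% and 4.64% in DKO0, 1.45% and 5.91% in TKOL and 0.737% of the grid (exact permutation p = 0.667). The median density was 1.20 CpGs per 100 bp in DKO0 replicate 1 and 0.6 in the other 3 replicate lists, the value of the grid. Gene bodies outside promoters held 26.7% and 29.2% of DKO0 peaks and 28.5% and 29.0% of TKOL peaks, and intergenic sequence 63.0% and 66.9% against 69.8% and 65.1%, with p of 1.00 and 0.667 by the exact permutation test. In mm9 these make up 36.4% and 60.5% of bases.

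The promoter peaks of DKO0 replicate 1 ranked lower by p-value than its other peaks, with a median -log10 p of 5.11 against 5.45, but not by fold, with a median of 3.20 against 3.18. By p-value the same held in DKO0 replicate 2 (5.04 against 5.38) and TKOL replicate 2 (4.95 against 5.32). It did not hold in TKOL replicate 1 (5.37 against 5.26). Among the first 1000 peaks of DKO0 replicate 1, 3.60% lay at a promoter, which was within the 3.10% to 4.70% of the other 3 lists. For ranks 6001 to 9000 the share was 12.9% in DKO0 replicate 1, 4.67% in DKO0 replicate 2, 1.6% in TKOL replicate 1 and 5.90% in TKOL replicate 2. Of the 1178 promoter peaks of DKO0 replicate 1, 58.7% were in CpG-island-like windows. This held for 33.0% of 446 in DKO0 replicate 2. In TKOL it held for 0.669% of 299 in replicate 1 and 41.0% of 878 in replicate 2, so the lines overlapped.

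**Figure D4:**
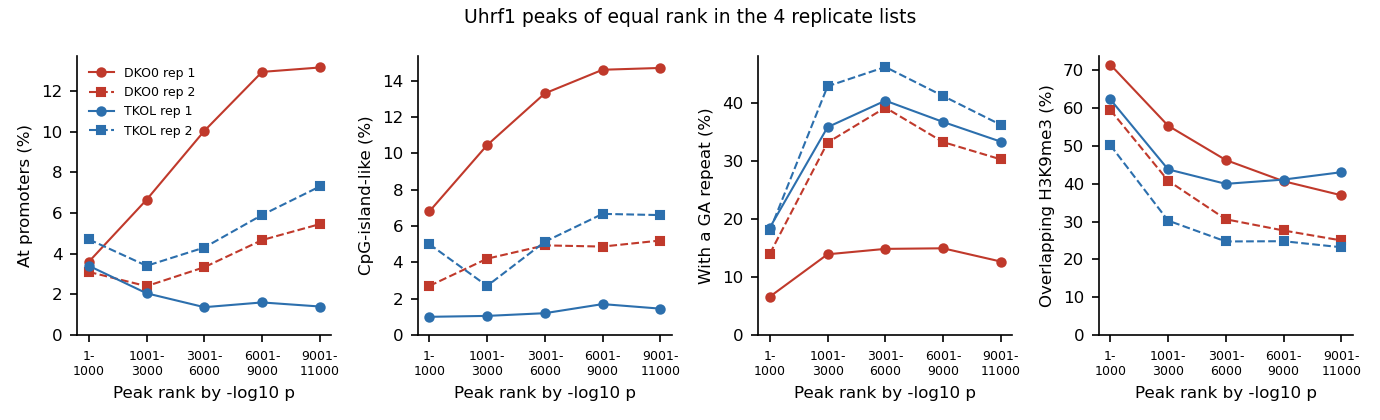
Share of Uhrf1 peaks (%) at promoters, in CpG-island-like windows, with a GA repeat and overlapping an H3K9me3 peak of the same line, against the rank of the peak by -log10 p, for the 4 replicate lists. At promoters the lists lay between 3.10% and 4.70% in the first 1000 peaks and between 1.40% and 13.2% at ranks 9001 to 11000, with DKO0 replicate 1 the highest.

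Few promoters recurred. Of 22380 coding genes, 1253 (5.6%) and 474 (2.12%) had a promoter peak in the DKO0 replicates and 304 (1.36%) and 940 (4.20%) in the TKOL replicates. Both DKO0 replicates marked 182 genes (0.813%), both TKOL replicates 137 (0.612%), and all 4 lists 49. DKO0 replicate 1 shared more of its genes with TKOL replicate 2 (335 genes, 26.7% of its own and 35.6% of the other list) than with DKO0 replicate 2 (182 genes, 14.5% and 38.4%). The pooled lists marked 2478 genes in DKO0 (11.1%) and 917 in TKOL (4.10%). Of the 2478 genes of the pooled DKO0 list, 179 had a peak in both replicates, 855 in replicate 1 alone, 235 in replicate 2 alone and 1209 in neither.

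DKO0 replicate 1 and TKOL replicate 2, the lists with the most promoter peaks, also marked the most histone, ribosomal protein, pluripotency and imprinted genes. For two-cell stage and receptor genes this did not hold. Over all coding genes the share marked was 5.6% and 2.12% in DKO0 and 1.36% and 4.20% in TKOL. In both replicates of a line it was 0.813% in DKO0 and 0.612% in TKOL. Replication-dependent histone genes had a promoter peak at 28 and 2 of 67 genes in DKO0 (41.8% and 2.99%) and at 0 and 19 in TKOL (0% and 28.4%). Of 76 ribosomal protein genes, 11 and 2 were marked in DKO0 (14.5% and 2.63%) and 0 and 5 in TKOL (0% and 6.58%). Genes marked in both replicates were few. Among the histone genes only Hist1h4k was, in DKO0, with folds of 3.75 and 3.78 and a value of 3.65 in TKOL replicate 2. Among ribosomal protein genes Rps29 and Rpl37 were marked in both DKO0 replicates and also in TKOL replicate 2. Of 25 pluripotency genes, 4 and 2 were marked in DKO0 and 2 and 5 in TKOL, and 2 (8%) in both replicates of each line. Zfp42, also called Rex1, had 3.69 and 3.58 in DKO0 and 6.95 and 3.25 in TKOL, so the lines overlapped. Tbx3, a transcription factor of self-renewal, had 3.51 and 3.42 in DKO0 and no peak in TKOL, and Esrrb had 3.17 and 3.12 in TKOL and a peak of 2.69 in the pooled DKO0 list alone. Of 31 imprinted genes, 5 and 1 were marked in DKO0 (16.1% and 3.23%) and 0 and 2 in TKOL (0% and 6.45%). Mest was the single member marked in both DKO0 replicates, with 3.38 and 2.83, and had 3.16 in TKOL replicate 2, and no imprinted gene was marked in both TKOL replicates. Of 21 two-cell stage genes, 1 and 2 were marked in DKO0 and 2 and 1 in TKOL. Sp110 was the one found in all 4 lists, at low folds of 1.90 and 2.15 in DKO0 and 2.72 and 2.70 in TKOL.

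Germline genes, which DNA methylation silences in somatic cells, were marked at 1 and 0 of 39 in DKO0 and 0 and 5 in TKOL, with none in both replicates of a line. The same held for the 33 genes of DNA methylation and heterochromatin, the 18 feeder fibroblast genes and the 24 clustered protocadherin genes, with 0 to 4 genes per replicate list. Zinc finger genes named Zfp, many of which encode KRAB proteins, were marked in both replicates at 6 of 371 in DKO0, or 1.62%, and 3 in TKOL, or 0.809%, beside 0.813% and 0.612% of all coding genes. Zfp511 was the member marked in both DKO0 replicates with no peak in any TKOL list, with 3.04 and 3.33, while Zfp600 had 3.59 and 2.47 in DKO0 and 3.87 and 4.59 in TKOL. Of 1113 olfactory receptor genes, 0 and 2 were marked in the DKO0 replicates and 10 and 4 in the TKOL replicates. Of 322 vomeronasal receptor genes, 2 and 3 were marked in DKO0 and 5 and 3 in TKOL. Both DKO0 replicates marked 0 genes of either list, and both TKOL replicates marked 1 of each. These were Olfr119, with 3.23 and 4.93 in TKOL and no DKO0 peak, and Vmn1r175, with 3.11 and 2.98 in TKOL and 3.16 in DKO0 replicate 2. Neither Uhrf1, which carries the tag, nor Dnmt1 had a Uhrf1 peak within 5000 bp in any of the 6 lists.

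Loci particular to a line by the rule of a peak in both replicates and in no list of the other numbered 325 in DKO0 (0.515% of all merged loci) and 936 in TKOL (1.48%). The TKOL lists are longer. With equal peak numbers the counts were 447 and 531. Of the 6223 loci in exactly 2 replicate lists, 586 were in both DKO0 lists, 1514 in both TKOL lists and 4123 in 1 list of each line, and of the 6 possible pairs 4 cross the lines. With equal peak numbers these counts were 799, 879 and 3377.

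TKOL-specific loci were rich in simple repeats. The word GAGAGAGAGA, read on both strands in 300 bp around the midpoint, was in 514 of the 936 (54.9%), and it was in 34 of the 325 DKO0-specific loci (10.5%), in 17% of the shared loci, in 30.5% of all merged loci and in 2.54% of grid windows. Outside repeated windows it was in 490 of 708 TKOL-specific loci (69.2%), in 14.6% of DKO0-specific loci, in 24% of shared loci and in 43.5% of all merged loci. The word was chosen after these loci had been seen and the difference was not tested. Per list it was in 13.5% and 32.1% of DKO0 peaks and 32% and 37.4% of TKOL peaks, so that DKO0 replicate 1 stood apart and DKO0 replicate 2 lay beside TKOL replicate 1. The word CACACACACA gave 13.3% and 30.1% in DKO0 and 25.5% and 32.8% in TKOL, and 5.41% of the grid. When loci were defined anew without peaks in GA windows, 299 were DKO0-specific and 353 TKOL-specific.

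DKO0-specific loci had more CpGs and more often lay at promoters. Of the 325, 14.2% were at promoters and 19.7% in CpG-island-like windows, against 2.78% and 0.962% of the 936. The median was 1.40 and 0.400 CpGs per 100 bp. Over all merged loci these values were 5.58%, 5.61% and 0.8, and over the shared loci 2.22%, 3.57% and 0.8. DKO0 replicate 1, the list with the most promoter peaks and the fewest GA repeats, is part of both definitions. So is TKOL replicate 1, the list with the fewest peaks at promoters and in CpG-island-like windows. Their part in the difference was not tested. At least 1 WT list had a peak at 24.3% of DKO0-specific and 16.0% of TKOL-specific loci. This share was 18.2% over all merged loci and 70.1% over the shared loci.

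The DKO0-specific locus of highest fold, 502065 bp from the start of Cntnap2, had 4.6 and 4.97. It lies in repeated sequence and overlaps an H3K9me3 peak of both lines. The next, 40417 bp from Mrpl42, had 3.72 and 3.76 and overlapped no mark. Those 3878 bp from Eid2 and 2789 bp from Ap2m1 had a lowest fold of 3.67 and 3.63. Of the 10 DKO0-specific loci of highest fold, 3 stayed DKO0-specific at a -log10 q of at least 3. With GA windows left out 7 did so, and 7 without chromosomes 6, 8 and 14. At promoters the first genes were Fut10, a fucosyltransferase, with 3.89 and 3.51, Ccdc85a with 3.5 and 3.46, Slc1a4, an amino acid transporter, with 3.58 and 3.38, Tbx3, and Cdk1, the kinase of mitotic entry, with 3.33 and 3.29. Tbx3 and Cdk1 peaks lay 6 and 7 bp from the start, in windows of 8.00 and 6.80 CpGs per 100 bp.

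The TKOL-specific locus of highest fold, 456267 bp from 1700018B24Rik, had 5.33 and 4.92 and overlapped an H3K9me3 peak in DKO0 but not in TKOL. The next lay in the bodies of Aoah, with 4.85 and 4.87, and of Cntn4, a neural adhesion protein, with 4.73 and 4.70, and far from Pde3a, with 4.86 and 4.69. Of the 10 TKOL-specific loci of highest fold, 10 stayed TKOL-specific at a -log10 q of at least 3. With GA windows left out 3 did so, and 3 without chromosomes 6, 8 and 14. At promoters the first genes were Mlkl, the effector of necroptosis, with 4.05 and 4.28, Rergl with 3.91 and 4.75, Fuk with 3.90 and 3.78, Tas2r139, a taste receptor, with 3.68 and 3.82, and Mixl1, a transcription factor of the primitive streak, with 4.55 and 3.67. All 5 windows had 0.6 CpGs per 100 bp or fewer. These folds chose the loci and are given as a description. None reached the 8.72 of the tenth shared locus.

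Chromosomes did not hold peaks in proportion to their length. Chromosome 6 held 10.5% and 11.9% of DKO0 peaks and 10.2% and 11.5% of TKOL peaks, with 5.72% of the bases of mm9, and chromosome 8 held 7.68% and 8.84% in DKO0 and 7.23% and 8.46% in TKOL, with 4.88%. Chromosome 14 held 8.06% and 6.99% in DKO0 and 9.22% and 5.85% in TKOL, with 4.75%. In the WT lists chromosome 6 held 5.26% and 5.36%, chromosome 8 6.56% and 6.54%, and chromosome 14 4.52% and 4.25%, so that chromosome 8 was above its share of bases in WT too. Of the line-specific loci, chromosome 6 held 40 of 325 in DKO0 and 122 of 936 in TKOL. Copy number was not measured here, and its part in these shares was not tested. Without chromosomes 6, 8 and 14, 231 DKO0-specific and 664 TKOL-specific loci were left.

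**Figure D5:**
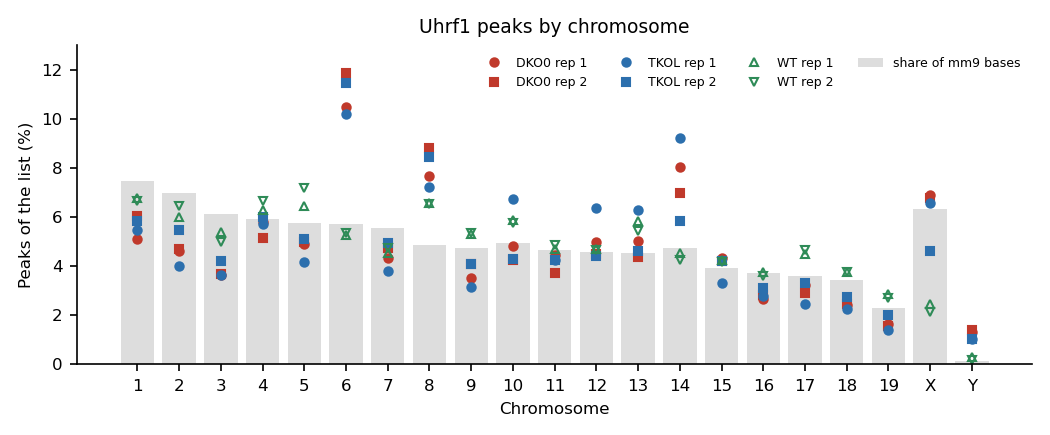
Share of the Uhrf1 peaks of a list (%) on each chromosome, for the replicates of DKO0 (red), TKOL (blue) and WT (green), over the share of mm9 bases (grey bars). Chromosome 6 stood at 10.2% to 11.9% in the DKO0 and TKOL lists and at 5.26% and 5.36% in the WT lists.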

How the data were processed

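Uhrf1 ChIPmentation of DKO0 and TKOL was analysed from 6 peak lists, with 2 WT Uhrf1 lists and the pooled H3K9me3 and Trim28 lists of both lines for comparison. Samples were grouped by their labels. The authors used BWA for alignment to mm9, GATK to take out duplicates, and MACS2 with input for broad peaks. The deposited values of a peak are its fold enrichment (a ratio over the local background) and, on a -log10 scale, a p-value and a q-value. No reads were counted, and the depth reached is unknown, so that counts of peaks cover no sequencing error.

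Peaks were merged and compared by an overlap of at least 1 bp, checked with bedtools 2.31.1. A peak took the class of its midpoint, from the GENCODE genes of the same build. Grid windows were placed every 50000 bp. The genome carries no soft-masking, so repeats were defined by words of 24 bp in place of the soft-masked bases that had been planned. Values of the 2 replicate lists per line were compared by a two-sided exact permutation test, with no adjustment since none could pass. The rule for line-specific loci was tested on simulated lists, in which the pooled lists held planted peaks only. Named loci are the 10 of highest fold of each kind, taking the lowest fold over the replicate lists that define it. Not all of them are reported here. Named genes are up to 6 per gene list with a promoter peak in both replicates of a line, up to 5 line-specific promoters per line, and Uhrf1 and Dnmt1. Genes at RE1 words were picked after their values were seen. The members and lists were chosen with earlier results of these data known. The alternatives were equal peak numbers, a -log10 q of at least 3, other overlaps, promoter widths and gene sets, autosomes only, each replicate left out and a replicate block. Leaving out repeated windows, GA windows or chromosomes 6, 8 and 14, and the word and repeat-class counts, were added after the data were seen. Scripts ran in Python 3.11.15. They called numpy 2.4.6 and scipy 1.17.1, and figures were drawn with matplotlib 3.10.9.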

Additional observations from a re-analysis of the deposited data

How the results depend on the processing

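Values are DKO0 minus TKOL unless they are counts. With equal peak numbers the difference in median width was -5.00 bp and in covered length -0.128 Mb, and TKOL-specific loci numbered 531. With a -log10 q of at least 3, intergenic peaks differed by 1.38 and overlap with Trim28 by 2.92 and with H3K9me3 by 13.5 percentage points, and 50 loci were DKO0-specific and 163 TKOL-specific. On autosomes alone the Trim28 difference was 0.0981 percentage points. With GA windows left out, the number of peaks differed by -1718, repeated windows differed by -3.0 and overlap with H3K9me3 by -1.82 percentage points, and TKOL-specific loci numbered 353. With repeated windows left out, DKO0-specific loci numbered 212, and with the pooled lists ignored the counts were 586 and 1514. With promoters of 500 bp either side, 63 genes were marked in both TKOL replicates in place of 137. The cause was not tested, except that leaving out a replicate or the pooled lists drops a condition that a locus must meet.

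Leaving out 1 replicate at a time gave ranges of -5980 to -3351 peaks, -1.34 to -0.464 Mb, -3 to 11 bp of width and -0.307 to -0.178 of fold. In percentage points they were 0.0621 to 6.48 at promoters, -2.03 to 0.449 in gene bodies, -4.84 to -0.116 in intergenic sequence, 0.958 to 9.12 in CpG-island-like windows, -4.01 to 12.5 in repeated windows, -3.58 to 13.2 for H3K9me3 and -8.17 to 5.64 for Trim28. The CpG difference ranged from 0 to 0.6 per 100 bp. Sign changes came without DKO0 replicate 1 in gene bodies (0.449), repeated windows (-2.55) and H3K9me3 (-1.98), without TKOL replicate 2 in width (-3), repeated windows (-4.01) and H3K9me3 (-3.58), and for Trim28 without DKO0 replicate 2 (4.49) or TKOL replicate 1 (5.64). Line-specific loci then numbered 343 to 4439 in DKO0 and 943 to 8585 in TKOL.

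The replicate block gave the same mean differences, such as -4666 peaks, with sign-flip p of 0.500 or 1.00, where 0.500 is the smallest possible. The labels give the lines the same replicate numbers and no other pairing. Lists of the same number shared 16.0% and 21.1% of their covered length across the lines, and lists of different number 16.6% and 18.5%. Unknown depth and 2 lists per line limit every comparison.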
